A study of Rattus norvegicus with 10 samples.

Results

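Cultured cardiac fibroblasts of newborn rats were compared with and without phenylephrine, an agonist of alpha1-adrenergic receptors, across every gene counted. The 4 fibroblast libraries, of 10 in the whole series, were taken by the cell type and medium in their labels: 2 from fibroblasts in serum-free medium with 10 µM phenylephrine (PE) and 2 from fibroblasts in serum-free medium alone (SFM). The other 6 libraries came from cardiomyocytes of rats of the same age range, 3 with phenylephrine and 3 in serum-free medium. Ventricles of rats aged 1 to 3 days were digested with enzymes, the cells were separated on a Percoll density gradient, and the fibroblasts, at passage 2, were plated without being counted. The medium was changed 24 h after plating. How long the agonist was present, and whether replicates came from separate cultures or litters, is not given by the labels. Each p-value therefore measures only the spread between libraries of a group, which the main fit estimated from all 10 libraries, cardiomyocytes included. No drug other than phenylephrine, no antagonist and no genetic change is named for any group.

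Alpha1-adrenergic receptors couple mainly to Gq, which activates phospholipase C, raises calcium and activates protein kinase C, whereas beta-adrenergic receptors couple mainly to Gs and raise cyclic AMP (cAMP). Cyclic AMP activates protein kinase A and the transcription factor CREB, which binds the cAMP response element, and phosphodiesterases end the signal by degrading cAMP. Cardiac fibroblasts make and turn over the extracellular matrix of the heart and, on injury, stretch or TGF-beta, can become myofibroblasts that carry smooth-muscle actin and lay down matrix. In cultured cardiac fibroblasts, agents that raise cAMP are known to oppose that change.

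The fibroblast libraries held 19192379 and 18048944 counts with PE and 20217665 and 19715598 counts in SFM. A count of 3 corresponded to 0.152 to 0.166 CPM (a gene's count relative to the scaled library size) in them, which covers counting error only. The PE libraries differed from each other by 2.41 times what counting error alone gives (chi-square divided by degrees of freedom), the SFM libraries by 14.5 times, and libraries of different groups by 20.5 to 39.2 times. On the first principal component, with 59.5% of the variance, the PE libraries lay at -21.5 and -20.5 and the SFM libraries at 28.6 (replicate 1) and 13.5 (replicate 2). Mitochondrially encoded genes took 2.7% and 3.01% of the counts with PE and 3.26% and 3.05% in SFM. All 10 libraries shared 1 sequencing lane, and the labels name no other batch.

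The label of cardiac fibroblasts was checked against defining markers. The 12 fibroblast markers, among them the collagen gene Col1a1 and the transcription factor gene Tcf21, summed to 60600 and 58400 CPM with PE and 43800 and 50900 CPM in SFM, against 8750 to 18000 CPM in cardiomyocyte libraries. The 10 cardiomyocyte markers summed to 560 and 550 CPM with PE and 601 and 616 CPM in SFM, against 41300 to 51100 CPM in cardiomyocyte libraries. In the fibroblast libraries most of that sum was Tnnt2, at 505 and 475 CPM with PE and 551 and 565 CPM in SFM. Endothelial markers summed to 43.2 and 45 CPM with PE and 35 and 29.8 CPM in SFM, and Emcn, which encodes the endothelial glycoprotein endomucin, was at 0 in all 4 libraries. Most of the endothelial sum was Tek, at 35.4 and 38.2 CPM with PE and 25.6 and 20.1 CPM in SFM. Leukocyte markers gave 15.4 and 18 CPM with PE and 9.61 and 19.6 CPM in SFM, so SFM replicate 1 was the lowest of the 4. Markers of smooth muscle and pericytes summed to 2790 and 2640 CPM with PE and 2560 and 3150 CPM in SFM, those of epicardium to 91 and 91.2 CPM with PE and 80.4 and 74.1 CPM in SFM, and those of Schwann cells and neurons to 8.54 and 9.01 CPM with PE and 8.3 and 9.69 CPM in SFM. Of these marker lists, 1 of 8 endothelial genes tested (Tek, an angiopoietin receptor) and 1 of 12 fibroblast genes (Tcf21) were called higher and none lower. None of 10 cardiomyocyte, 9 leukocyte, 10 smooth muscle and pericyte, 7 epicardial and 4 Schwann and neural markers was called in either direction. In the fit of fibroblast libraries alone, 4 fibroblast markers were higher and none lower, and 1 smooth muscle and pericyte marker was higher and 3 lower. That fit called 731 genes higher and 575 lower of all 12806 tested, more than the fit of all libraries. In such bulk libraries fewer cells of a type and less RNA per cell cannot be told apart.

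With phenylephrine, 286 of 13869 tested genes (2.06%) were higher and 245 (1.77%) were lower in fibroblasts (edgeR's quasi-likelihood test, with Benjamini-Hochberg adjustment over all genes and a threshold of 0.05). These shares of all tested genes are the background of every list and marker count from this fit. The rises were larger than the falls: 121 of the 286 higher genes (42.3%) passed 2-fold, against 29 of the 245 lower genes (11.8%). The median log2 fold change (PE over SFM) was 0.87 among genes called higher and -0.52 among genes called lower, against -0.00283 over all tested genes. Genes called lower had a median level of 60 CPM, genes called higher 18.9 CPM and all tested genes 19.5 CPM. No library of one group overlapped the other group in any of the 531 called genes, but the same held for 54.4% of all tested genes, so lack of overlap alone says little with 2 libraries a group.

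**Figure D1:**
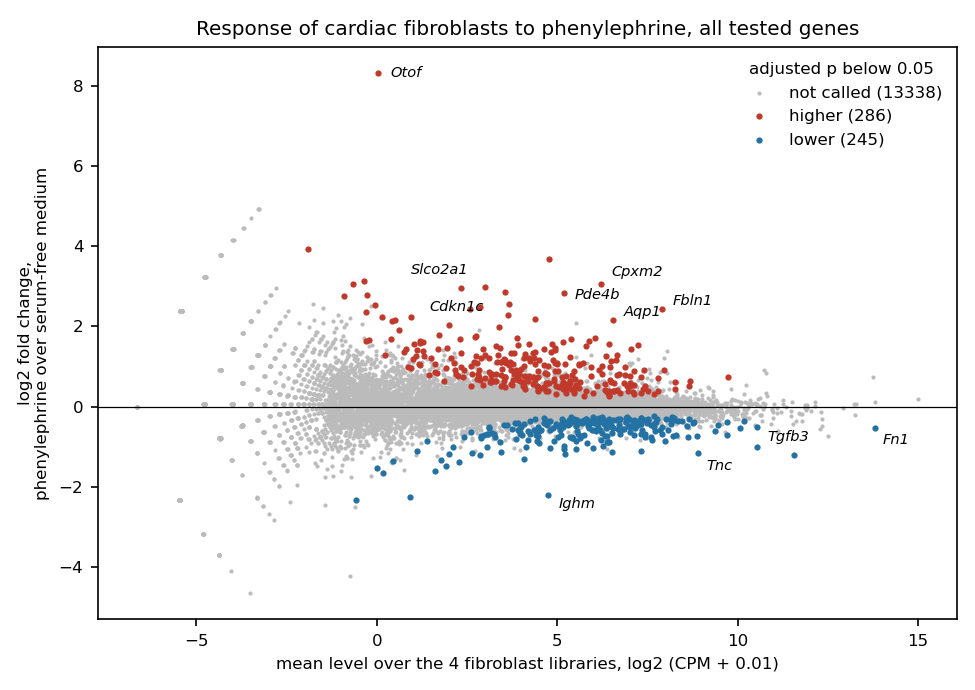
Mean level over the 4 fibroblast libraries (horizontal axis, log2 of CPM plus 0.01) against the log2 fold change of PE over SFM (vertical axis) for the 13869 tested genes, with 286 genes called higher in red, 245 called lower in blue and the rest in grey. The red points reach further from 0 than the blue ones, and Tgfb3 and Fn1 lie among the blue points at high levels.

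The number of calls changed with the libraries that entered the fit. It was 73 higher and 39 lower without PE replicate 1, 82 and 47 without PE replicate 2, 94 and 68 without SFM replicate 1, and 271 and 245 without SFM replicate 2. Then PE replicate 1 and SFM replicate 2 of the cardiomyocytes were left out. That gave 1030 higher and 1026 lower genes of 13786 tested. These 2 libraries were picked after the data were seen. They are described below as standing apart from their groups, but no measure of that is given here. A fit of the fibroblast libraries alone gave 731 higher and 575 lower of 12806 tested. Calls thus rose over all genes in these 2 fits, and every list count given below for them includes that general rise. No called gene changed direction in any of these fits. Scaling by library size alone gave 370 higher and 184 lower genes, 66.8% higher against 53.9% with the main scaling. In all 4 fits that left out 1 fibroblast library, 57 genes stayed higher and 33 stayed lower, and a gene is described as kept below where its call stood in all 4. Of 82 called genes that the naming rule gives, 26 were kept, while 52 lost their call without PE replicate 1, 47 without PE replicate 2, 49 without SFM replicate 1 and 16 without SFM replicate 2. Apart from the genes described as kept, every called gene named here lost its call in at least 1 of these fits. The authors' deposited table holds 340 higher and 311 lower genes at the same threshold, of which 510 were also called here, each in the same direction.

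Among the receptors for the agonist, transcripts were few. Adra1a, an alpha1 receptor gene, had 5 and 3 counts with PE and 3 and 0 counts in SFM, and Adra1d, another, stood at 0.0521 and 0.111 CPM with PE and 0.0506 and 0.104 CPM in SFM. Both were at or near the level that 3 counts give in every library. Adra1b, the third alpha1 receptor gene, stood at 1.04 and 1.33 CPM with PE and 0.506 and 0.208 CPM in SFM, and its log2 fold change of 1.70 ± 0.50 (SE) did not pass the test (adjusted p = 0.0947), though it passed in the fit of fibroblast libraries alone (adjusted p = 0.0363) and in DESeq2 (0.0177), with a range of 0.0065 to 0.357 over all alternatives. Adrb1, the beta1 receptor gene, was at 0.834 and 0.497 CPM with PE and 0.961 and 0.625 CPM in SFM (adjusted p = 0.811).

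Downstream of Gq, 2 of 23 genes were higher and none lower, beside 2.06% of all tested genes called higher. The list median of -0.00495 lay near that of all genes. The 2 higher genes were Itpr3, an inositol trisphosphate receptor of the endoplasmic reticulum (44.7 and 45.4 CPM with PE, 30.5 and 33.5 CPM in SFM; log2 0.49 ± 0.09), and Rgs2, a regulator that shortens Gq signalling (12.2 and 11.8 CPM with PE, 8.55 and 6.98 CPM in SFM; 0.63 ± 0.13). Each group of libraries is tight for both genes and the groups stand apart, with adjusted p of 0.00941 for Itpr3 and 0.0232 for Rgs2. None of 10 adenylyl cyclase and Gs genes passed, with a median of -0.00325. Among protein kinase A, its inhibitors and CREB factors, 1 of 18 was higher: Rapgef3, which encodes the cAMP sensor Epac1, at 20.6 and 16.1 CPM with PE and 11.3 and 11.8 CPM in SFM (log2 0.67 ± 0.14, adjusted p = 0.024). That list's median was -0.0244. Itpr3, Rgs2 and Rapgef3 each lost their call in 3 of the 4 fits without 1 library.

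Phosphodiesterases that degrade cyclic nucleotides moved one way: 5 of 13 tested genes were higher and none lower, with a list median of 0.48. Pde4b, a cAMP-specific enzyme, had 63.3 and 65.9 CPM with PE and 9.86 and 8.28 CPM in SFM. Every PE library was far above every SFM library, and the 7.11-fold rise (log2 2.83 ± 0.11, adjusted p = 2.19e-07) was kept without each library in turn. Pde3a, an enzyme that cGMP inhibits, was at 28.3 and 28.2 CPM with PE and 11.9 and 15.2 CPM in SFM, a rise of 1.06 ± 0.12 (adjusted p = 0.000968) that was also kept. Pde4d, like Pde4b of the rolipram-sensitive family, was at 17.7 and 20.2 CPM with PE and 6.48 and 8.44 CPM in SFM (1.34 ± 0.25, adjusted p = 0.0191). Pde7b, another cAMP-specific enzyme, had 2.14 and 1.16 CPM with PE and 0.354 and 0.208 CPM in SFM (2.53 ± 0.45, adjusted p = 0.0107). Pde3b, named as the last of the 5, rose by 0.64 ± 0.15 (adjusted p = 0.0471). The groups stand apart for each of these genes, but Pde4d lost its call without either PE library or SFM replicate 1 (adjusted p of up to 0.192) and Pde7b without PE replicate 1 or either SFM library (up to 0.123). In the fit of the fibroblast libraries alone the same 5 genes were higher and Pde7a was lower.

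Genes known to be induced by cAMP and CREB in other cells were split. Of 27 tested, 7 were higher and 2 lower, and the list median was 0.064, near 0. Besides Pde4b, Pde4d and Rgs2, the higher genes included Inha, Nr4a3, Nr4a1 and Sik1. Inha, the inhibin alpha subunit, was at 22.2 and 21.4 CPM with PE and 3.34 and 4.12 CPM in SFM (log2 2.55 ± 0.24, adjusted p = 0.0006). The orphan nuclear receptor gene Nr4a3 had 10.4 CPM in both PE libraries and 2.88 and 3.28 CPM in SFM (1.75 ± 0.14, adjusted p = 8.91e-05). Its relative Nr4a1 had 44.7 and 44.4 CPM with PE and 20.1 and 13.4 CPM in SFM (1.41 ± 0.19, adjusted p = 0.00366). These 3 rises were kept without each library, and the PE libraries agree closely while the SFM libraries differ more for Nr4a1. Sik1, a kinase that switches off CREB coactivators, had 8.91 and 11.2 CPM with PE and 2.88 and 3.13 CPM in SFM (1.74 ± 0.28, adjusted p = 0.01). The 2 genes that fell were Ptgs2, the inducible cyclooxygenase, with 14.3 and 17.1 CPM with PE and 33.7 and 25.4 CPM in SFM (-0.92 ± 0.15, adjusted p = 0.00781), and Inhba, the activin beta A subunit, described below. Ptgs2 lost its call without PE replicate 1 or SFM replicate 1, with adjusted p of up to 0.115. Il6, a cytokine gene often induced by cAMP, had 0.104 and 0.111 CPM with PE and 0.304 and 0.208 CPM in SFM, under or near the level of 3 counts, and did not pass (adjusted p = 0.516).

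Promoter letters were read for the called genes of that list and for Cpxm2, Slco2a1, Cdkn1c and Tnc, since CREB is known to bind the palindrome TGACGTCA and its shorter form TGACG. RefSeq windows of build GRCr8, from 250 bases before to 50 after a gene's start, were found for 11 of these 13 genes, and none of the 11 held the palindrome on either strand. The shorter form, which the palindrome contains, was in 4 of the 11 (36.4%), on either strand, against 3135 of 9880 tested genes with a window (31.7%), 44 of 203 genes called higher (21.7%) and 53 of 191 called lower (27.7%). The palindrome was in 0.985% of the called higher, 2.62% of the called lower and 3.11% of the tested windows. The AP-1 motif TGANTCA, with N for any base, was in none of the 11, in 6.4% of the called higher, in 4.19% of the called lower and in 4.89% of the tested windows. A match is a description of these letters and not a measured binding site. The 4 windows with the shorter form are shown for the 250 bases before the start, 5′ to 3′ on the gene's strand, with the motif in capitals (CGTCA is its reverse complement).
Inha, chr9:84442859-84443108, plus strand: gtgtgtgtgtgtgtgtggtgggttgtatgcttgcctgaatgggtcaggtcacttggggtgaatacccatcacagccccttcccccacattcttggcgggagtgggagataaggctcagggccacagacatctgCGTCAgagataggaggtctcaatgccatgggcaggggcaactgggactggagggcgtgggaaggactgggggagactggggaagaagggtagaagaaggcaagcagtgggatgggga
Nr4a1, chr7:134259888-134260137, plus strand: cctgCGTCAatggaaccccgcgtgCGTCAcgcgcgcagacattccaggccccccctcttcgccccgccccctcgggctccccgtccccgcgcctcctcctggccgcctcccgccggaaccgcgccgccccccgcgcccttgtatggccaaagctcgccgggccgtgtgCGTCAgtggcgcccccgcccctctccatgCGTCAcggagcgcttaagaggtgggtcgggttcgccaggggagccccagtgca
Sik1, chr20:9958647-9958896, minus strand: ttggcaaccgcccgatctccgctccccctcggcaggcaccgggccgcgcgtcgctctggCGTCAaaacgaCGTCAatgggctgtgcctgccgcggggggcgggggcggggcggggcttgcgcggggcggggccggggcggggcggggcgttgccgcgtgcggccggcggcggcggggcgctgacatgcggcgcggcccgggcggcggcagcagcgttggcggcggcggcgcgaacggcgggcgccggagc
Rgs2, chr13:58352667-58352916, minus strand: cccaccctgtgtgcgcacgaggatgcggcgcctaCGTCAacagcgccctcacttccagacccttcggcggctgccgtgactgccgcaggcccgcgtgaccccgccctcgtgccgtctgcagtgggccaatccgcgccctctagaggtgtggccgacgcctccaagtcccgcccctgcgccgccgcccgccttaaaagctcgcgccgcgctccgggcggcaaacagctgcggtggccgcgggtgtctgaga
The motif begins 117 bases before the start in Inha and 216 bases before it in Rgs2. In Sik1 it begins 191 and 180 bases before the start, and in Nr4a1, with 4 copies, 246, 226, 82 and 53 bases before it.

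Among called genes that reached 10 CPM in one group, 11 of the 12 largest rises are described: Cpxm2, Slco2a1, Cdkn1c, Pde4b, Inha, Olfml2a, Nppc, Fbln1, Pi16, Gas1 and Aqp1. All 11 were kept without each library in turn. Cpxm2, a secreted protein of the carboxypeptidase family, had 128 and 135 CPM with PE and 13.8 and 17.9 CPM in SFM, an 8.29-fold rise (log2 3.05 ± 0.14, adjusted p = 1.13e-06). Slco2a1, the prostaglandin transporter that takes prostaglandins into cells, had 14.8 and 13.9 CPM with PE and 2.18 and 1.41 CPM in SFM, a 7.96-fold rise (2.99 ± 0.22, adjusted p = 4.45e-05). In both genes the PE libraries lie close together and several-fold above both SFM libraries. Cdkn1c, a cyclin-dependent kinase inhibitor, varied more with PE (17.6 and 23.5 CPM) and had 2.43 and 3.23 CPM in SFM, so the groups still lay far apart (2.86 ± 0.19, adjusted p = 2.87e-05).

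Natriuretic, water-channel and matrix genes followed among the largest rises. Nppc, which encodes C-type natriuretic peptide, a hormone that acts through cGMP, had 10.2 and 9.95 CPM with PE and 2.07 and 1.61 CPM in SFM (log2 2.44 ± 0.21, adjusted p = 0.000109). Aqp1, the water channel aquaporin-1, had 161 and 146 CPM with PE and 38.3 and 30.2 CPM in SFM (2.16 ± 0.16, adjusted p = 0.000109). Fbln1, the matrix glycoprotein fibulin-1, had 400 and 414 CPM with PE and 68.2 and 82.2 CPM in SFM (2.44 ± 0.23, adjusted p = 0.00114). For all 3 the lowest PE library was over 3 times the highest SFM library. Olfml2a, an olfactomedin-domain protein, had 11.7 and 12.7 CPM with PE and 1.87 and 2.5 CPM in SFM, and Gas1, a membrane-anchored coreceptor of hedgehog signalling, had 37.5 and 30.8 CPM with PE and 5.36 and 9.53 CPM in SFM. Their rises were 2.48 ± 0.26 (adjusted p = 0.000556) for Olfml2a and 2.20 ± 0.29 (adjusted p = 0.00339) for Gas1, whose SFM replicate 1 was the lowest library. Otof, the calcium sensor otoferlin known from inner-ear hair cells, lies outside that level rule and was chosen after its values were seen. It had 40 and 36 counts with PE and none in SFM, and its call was kept. The ratio is 26.5 where 3 counts are put in for the SFM group, which is not a lower limit.

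**Figure D2:**
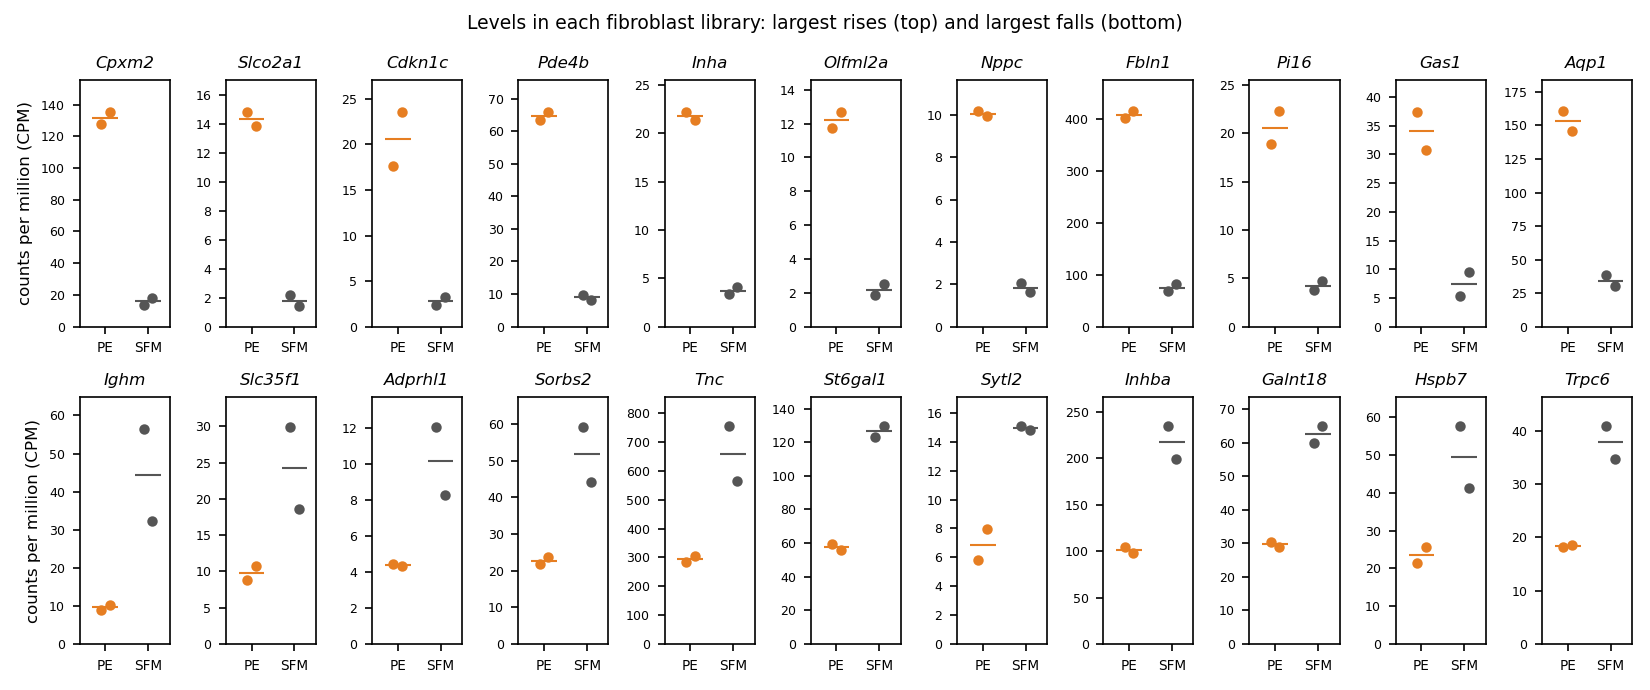
Level in each fibroblast library (CPM, vertical axes from 0, a separate scale per gene) for 11 of the 12 largest rises in the top row and 11 of the 12 largest falls in the bottom row, with PE in orange left of SFM in grey and a line at each group's mean. No gene has overlapping groups, and Ighm, Slc35f1 and Tnc show a wide gap between the 2 SFM libraries.

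The largest falls were smaller, at 2.06-fold to 4.63-fold for the 11 of 12 described, and 5 of these 11 were kept without each library in turn. Ighm, the immunoglobulin mu heavy chain gene, had 8.96 and 10.2 CPM with PE and 56.5 and 32.4 CPM in SFM (log2 -2.21 ± 0.25, adjusted p = 0.0012). It was kept without each library but lost in the fit of fibroblast libraries alone, and its family has many near copies. The source of its reads was not tested. Tnc, the matricellular protein tenascin-C, had 283 and 304 CPM with PE and 754 and 564 CPM in SFM (-1.17 ± 0.18, adjusted p = 0.00791). SFM replicate 1 was the highest library for both genes. Tnc lost its call without PE replicate 1, PE replicate 2 or SFM replicate 1, with adjusted p of up to 0.1.

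Several of the other falls were tighter. St6gal1, a sialyltransferase of the Golgi, had 59.5 and 55.7 CPM with PE and 123 and 130 CPM in SFM (log2 -1.13 ± 0.10, adjusted p = 0.000111), and Galnt18, an enzyme of the family that starts mucin-type O-glycosylation, had 30.3 and 29 CPM with PE and 59.8 and 65 CPM in SFM (-1.07 ± 0.08, adjusted p = 4.45e-05). Both were kept, as was Sytl2, an effector of the vesicle regulator Rab27, with 5.78 and 7.96 CPM with PE and 15.1 and 14.8 CPM in SFM. Sorbs2, an adaptor of actin filaments and Z-discs, had 21.8 and 23.6 CPM with PE and 59.3 and 44.3 CPM in SFM (-1.19 ± 0.15, adjusted p = 0.00155) and was kept. Hspb7, a small heat shock protein of muscle, had 21.5 and 25.5 CPM with PE and 57.5 and 41.3 CPM in SFM, and Adprhl1, a heart-enriched relative of ADP-ribosylhydrolases, had 4.43 and 4.31 CPM with PE and 12.1 and 8.28 CPM in SFM. In cardiomyocytes these genes had far higher mean levels: Sorbs2 2059.7 CPM with PE and 1571 CPM in SFM, Hspb7 1288 and 1279 CPM, and Adprhl1 349 and 329 CPM. The summed cardiomyocyte markers given above were 560 and 550 CPM with PE and 601 and 616 CPM in SFM. Most of this was Tnnt2, at 505 and 475 CPM with PE and 551 and 565 CPM in SFM (log2 -0.19). Myh6, Myh7 and Nppa differed by 0.57, 0.45 and 0.33, the median of the 10 markers was 0.30, and none was called. The part of these markers in the falls of Sorbs2, Hspb7 and Adprhl1 was not tested. Trpc6, a cation channel opened by diacylglycerol, had 18.2 and 18.6 CPM with PE and 40.9 and 34.7 CPM in SFM (-1.04 ± 0.17, adjusted p = 0.00679), and Slc35f1, of a family of nucleotide-sugar transporters, had 8.75 and 10.8 CPM with PE and 29.8 and 18.6 CPM in SFM. Hspb7 lost its call without PE replicate 1, Adprhl1 without either PE library, and Trpc6 and Slc35f1 without either PE library or SFM replicate 1.

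Matrix genes moved in both directions, with more rises than falls. Of 21 collagens, 2 were higher and none lower (list median 0.20): Col4a3, a basement membrane chain, at 41.5 and 41.4 CPM with PE and 21.6 and 17.7 CPM in SFM (log2 1.08 ± 0.12, adjusted p = 0.0006), and Col18a1, the source of endostatin, at 226 and 222 CPM with PE and 111 and 126 CPM in SFM (0.92 ± 0.12, adjusted p = 0.00168). Both were kept without each library. The fibrillar collagens did not pass: Col1a1 had a log2 difference of 0.20 ± 0.31 (adjusted p = 0.79) and Col3a1 of 0.74 ± 0.46 (adjusted p = 0.454), with 17303 and 17098 CPM with PE and 9256 and 11340 CPM in SFM for Col3a1. In the fit of the fibroblast libraries alone 7 collagens were higher, Col3a1 among them, and none lower.

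Among 25 matrix glycoproteins and matricellular proteins, 5 were higher and 3 lower, with a median of 0.26. The higher genes were Smoc2, Ecm1, Lama2, Tnxb and Tgfbi. Smoc2, a calcium-binding matricellular protein, had 46.2 and 44.3 CPM with PE and 17.2 and 15.8 CPM in SFM (log2 1.45 ± 0.27, adjusted p = 0.0193). Lama2, the laminin alpha2 chain, had 460 and 480 CPM with PE and 310 and 350 CPM in SFM (0.51 ± 0.11, adjusted p = 0.0307). The lower genes were Tnc, Nid2, a basement membrane nidogen (-0.68 ± 0.16, adjusted p = 0.0449), and Fn1, fibronectin, with 11832 and 11568.5 CPM with PE and 16339.9 and 17361 CPM in SFM (-0.53 ± 0.12, adjusted p = 0.0387). The groups stand apart for each, but the calls of Smoc2 and Fn1 were lost without each library in turn, at adjusted p of up to 0.152 and 0.234. Postn, which encodes periostin, had 1776 and 2139 CPM with PE and 1043 and 2048 CPM in SFM, so PE replicate 1 lay below SFM replicate 2 and the groups overlapped.

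Elastic fibre and crosslinking genes held 3 higher of 27 and none lower, with a median of 0.0548. Beside Fbln1 they were Mfap2, a microfibril protein (8.96 and 9.06 CPM with PE, 0.911 and 1.41 CPM in SFM; log2 2.96 ± 0.49, adjusted p = 0.0106), and Emilin1, an elastin-binding glycoprotein (379 and 361 CPM with PE, 207 and 278 CPM in SFM; 0.61 ± 0.13, adjusted p = 0.0272). Both lost their call without either PE library or SFM replicate 1, with adjusted p of up to 0.133 for Mfap2 and 0.198 for Emilin1. Of 10 small leucine-rich proteoglycans, 2 were higher, Prelp and Ecm2, and the median was 0.49. Lum, which encodes lumican, had 72.9 and 83.3 CPM with PE and 27.5 and 45.5 CPM in SFM and did not pass (1.10 ± 0.31, adjusted p = 0.107). In the fit of the fibroblast libraries alone 5 of that list were higher, with Dcn, Fmod and Ogn added.

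Metalloproteinases and their inhibitors gave 2 higher and 2 lower of 23 (median 0.16), all 4 of the ADAMTS family of secreted matrix proteases. Adamts9 had 41.4 and 39.6 CPM with PE and 18.9 and 17.3 CPM in SFM (log2 1.16 ± 0.08, adjusted p = 2.87e-05), and Adamts15 had 52.4 and 56.3 CPM with PE and 11.7 and 24.1 CPM in SFM (log2 1.603 ± 0.273, adjusted p = 0.0162). Adamts12 had 116 and 127 CPM with PE and 178 and 215 CPM in SFM (-0.69 ± 0.09, adjusted p = 0.00228), and Adamts1 had 184 and 182 CPM with PE and 300 and 254 CPM in SFM (-0.60 ± 0.11, adjusted p = 0.0121). The family was thus split, with Adamts9 and Adamts12 kept without each library, Adamts15 lost without either PE library and in the fit of the fibroblast libraries alone, and Adamts1 lost without either PE library or SFM replicate 1.

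None of 18 myofibroblast genes passed the test in either direction, although their median of -0.29 lay below that of all genes. Acta2, smooth-muscle actin and the usual marker of myofibroblasts, had 4329 and 4248 CPM with PE and 6158 and 5809 CPM in SFM (log2 -0.48 ± 0.24, adjusted p = 0.333). Cald1, which encodes caldesmon, had 1736 and 1818 CPM with PE and 2939 and 2476 CPM in SFM (-0.61 ± 0.20, adjusted p = 0.142), and Tpm2, a tropomyosin, had 1187 and 1221 CPM with PE and 1711 and 1602 CPM in SFM (-0.46 ± 0.14, adjusted p = 0.0947). In all 3 genes both PE libraries lay below both SFM libraries, as they did or the reverse for 54.4% of tested genes. The result depended on the fit: with the fibroblast libraries alone 10 of the 18 were lower and none higher, Acta2, Cald1, Cnn1, Tagln and Tpm2 among them, and without the 2 cardiomyocyte libraries that stand apart 11 were lower. Over all genes these fits called 575 of 12806 and 1026 of 13786 lower. The adjusted p of Acta2 was 0.00135 and 0.000135 in these fits, with a log2 difference of -0.47 and -0.48. Over the other alternatives it was at least 0.233, and it was 1 where a change of at least 2-fold was required.

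Related contractile and mechanical lists held a few falls, beside 1.77% of all tested genes called lower. Of 20 genes of the actin cytoskeleton and SRF targets, 1 was lower (median -0.12): Vcl, the adhesion protein vinculin, with 865 and 870.1 CPM with PE and 1278 and 1237 CPM in SFM (log2 -0.54 ± 0.12, adjusted p = 0.0359). Of 18 TEAD and YAP targets 3 were lower and none higher (median -0.27): Ankrd1, a stretch-responsive cofactor (-0.71 ± 0.16, adjusted p = 0.0351), Lats2, a Hippo pathway kinase (-0.45 ± 0.07, adjusted p = 0.00711), and Tgfb2. Ctgf, a secreted matricellular target of both YAP and TGF-beta, had 4556 and 4258 CPM with PE and 7855 and 6792 CPM in SFM and did not pass (-0.73 ± 0.20, adjusted p = 0.07), but was lower in the fit of the fibroblast libraries alone (adjusted p = 0.000359, with a range of 8.22e-05 to 1 over all alternatives), where 6 of the 18 were lower and 1 higher. Ankrd1 was at 645 and 629 CPM with PE and 1253 and 835 CPM in SFM, and lost its call in that fit. In the same fit 5 of the actin and SRF list were lower and 1 higher.

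Genes of the TGF-beta list changed in both directions. Of 28 genes, 5 were higher and 4 lower, with a median of 0.24. Ligand genes were among the lower ones: Tgfb2 had 180 and 188 CPM with PE and 319 and 268 CPM in SFM (log2 -0.68 ± 0.10, adjusted p = 0.00436), and Tgfb3 had 993 and 968 CPM with PE and 2199 and 1775 CPM in SFM (-1.02 ± 0.18, adjusted p = 0.0145). Inhba, whose dimer is the ligand activin A, had 104 and 97.7 CPM with PE and 235 and 200 CPM in SFM (-1.11 ± 0.19, adjusted p = 0.0154). For each of these ligands SFM replicate 1 was the highest library and both PE libraries lay well below both SFM libraries. Of the higher genes all but Id1 are named after their values were seen. Id1 (28.3 and 20.9 CPM with PE, 9.26 and 10.7 CPM in SFM; 1.31 ± 0.21, adjusted p = 0.00891) and Id2, both known targets of BMP signalling, encode inhibitors of helix-loop-helix factors, Grem1 encodes the BMP antagonist gremlin-1, Bambi a pseudoreceptor and Tgfbr3 the coreceptor betaglycan. Id2, Grem1, Bambi and Tgfbr3 rose by 0.58 to 0.82 in log2. Tgfb2 lost its call without PE replicate 1 alone, and Tgfb3 and Inhba without either PE library or SFM replicate 1. In the fit of the fibroblast libraries alone 12 of the list were higher and 6 lower.

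A few fibroblast identity genes rose, beside 2.06% of all tested genes called higher. Pi16, which marks adventitial-type fibroblasts in mouse and human tissue, had 18.9 and 22.3 CPM with PE and 3.74 and 4.74 CPM in SFM (log2 2.28 ± 0.24, adjusted p = 0.000657), and was the only 1 of 13 surface and quiescence markers called (median 0.33). Pdgfra, the platelet-derived growth factor receptor alpha of resident fibroblasts, had 221 and 227 CPM with PE and 121 and 151 CPM in SFM (0.72 ± 0.23, adjusted p = 0.144), and passed in the fit of fibroblast libraries alone, where 4 of the list were higher. Of 28 fibroblast transcription factors 3 were higher and 1 lower (median 0.22). Tcf21, which specifies cardiac fibroblasts, had 131 and 125 CPM with PE and 61.1 and 86.9 CPM in SFM (0.79 ± 0.18, adjusted p = 0.0472), Gata4 had 232 and 223 CPM with PE and 182 and 185 CPM in SFM (0.31 ± 0.07, adjusted p = 0.0302), and Twist2 had 8.54 and 7.79 CPM with PE and 3.04 and 5.11 CPM in SFM (1.01 ± 0.25, adjusted p = 0.0471). Osr1, an odd-skipped zinc finger factor, was lower, at 30.4 and 31.7 CPM with PE and 43.1 and 64 CPM in SFM (-0.79 ± 0.16, adjusted p = 0.0222). These 4 calls were fragile: each was lost in at least 3 of the 4 fits without 1 library, with adjusted p of up to 0.268, 0.253, 0.38 and 0.203 for Tcf21, Gata4, Twist2 and Osr1. With the fibroblast libraries alone 8 factors were higher and 1 lower, beside 731 higher and 575 lower of 12806 genes tested. Tcf21 and Osr1 were not among these factors.

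Growth-control genes showed few calls. Of 10 cyclin-dependent kinase inhibitors and GADD45 genes tested, Cdkn1c was higher and Gadd45g, a stress-induced growth-arrest gene, was lower, at 61.9 and 57.8 CPM with PE and 105 and 93.9 CPM in SFM (log2 -0.73 ± 0.14, adjusted p = 0.0211), with a list median of 0.0661. Cdkn1c was kept, and Gadd45g lost its call without either PE library or SFM replicate 1 (adjusted p of up to 0.185). None of 31 cell cycle genes passed, with a median of 0.23. Mcm2, a subunit of the replicative helicase, had 93.2 and 94.6 CPM with PE and 77.7 and 73.3 CPM in SFM (0.31 ± 0.10, adjusted p = 0.134). With the fibroblast libraries alone 6 cell cycle genes were higher and none lower, Mcm2, Mcm3, Mcm5, Cdc20, Foxm1 and Plk1, and without the 2 cardiomyocyte libraries that stand apart 11 were higher. Over all genes these fits called 731 of 12806 and 1030 of 13786 higher.

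Immediate early genes, often used as a readout of receptor activation, gave 1 call at the sampled time in the fit of all libraries. Of 21 tested none was higher and 1 lower (median -0.17): Zfp36, an mRNA-destabilizing protein, with 51.2 and 51.5 CPM with PE and 67.5 and 69.8 CPM in SFM (log2 -0.42 ± 0.07, adjusted p = 0.00941). Fos had 10.1 and 8.79 CPM with PE and 9.26 and 10.8 CPM in SFM (adjusted p = 0.868), and Myc 47.9 and 44.2 CPM with PE and 43.4 and 40.6 CPM in SFM (adjusted p = 0.775). With the fibroblast libraries alone, Jund and Klf2 were higher and Egr1, Egr2 and Zfp36 lower, 2 and 3 of the list. Egr2, a zinc finger factor, had 9.64 and 8.9 CPM with PE and 16.3 and 15 CPM in SFM (-0.76 ± 0.21, adjusted p = 0.0704) and was also lower in DESeq2, in limma-voom, without a filter and with the replicate block, with adjusted p of 0.0236 to 0.0444 there and of 0.000246 to 1 over all alternatives. Of 18 ERK feedback genes 2 were lower and none higher (median 0.0439): Spry4, a Sprouty inhibitor of growth factor signalling, with 32.1 and 30.7 CPM with PE and 54.8 and 51.3 CPM in SFM (-0.76 ± 0.12, adjusted p = 0.00683), and Dusp8, a MAP kinase phosphatase, with 6.93 and 7.68 CPM with PE and 12.3 and 11 CPM in SFM (-0.68 ± 0.12, adjusted p = 0.0115). The groups are clearly separate for Zfp36, Spry4 and Dusp8, and each lost its call without either PE library or SFM replicate 1. With the fibroblast libraries alone 4 ERK feedback genes were higher, Spry1, Spry2, Spred2 and Etv4, beside the same 2 lower.

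Secreted signals changed in small numbers, beside 2.06% of all tested genes called higher and 1.77% called lower. Of 35 growth factors and IGF binding proteins 3 were higher and 2 lower (median 0.15). Igfbp3, which binds insulin-like growth factors, had 191 and 199 CPM with PE and 71.7 and 71.9 CPM in SFM (log2 1.44 ± 0.19, adjusted p = 0.00424), and Hgf, hepatocyte growth factor, had 7.5 and 7.46 CPM with PE and 1.62 and 3.02 CPM in SFM (1.69 ± 0.27, adjusted p = 0.00607). Besides these and Nppc, which were higher, Pdgfd (-0.59 ± 0.11, adjusted p = 0.0159) and Vegfc, a growth factor of lymphatic vessels (-0.85 ± 0.16, adjusted p = 0.0221), were lower. Of 28 Wnt genes 3 were higher and none lower (median 0.33): Nkd1, an inhibitor of the pathway (14.4 and 15 CPM with PE, 4.45 and 5.83 CPM in SFM; 1.51 ± 0.23, adjusted p = 0.00417), Rspo1, an enhancer of it (17.1 and 17.7 CPM with PE, 10 and 6.77 CPM in SFM; 1.05 ± 0.21, adjusted p = 0.0208), and Dact2, at 1.04 and 1.22 CPM with PE and 0.152 and 0.104 CPM in SFM, the SFM levels at or under that of 3 counts; Dact2 was kept without each library (adjusted p of up to 0.048). Igfbp3 and Nkd1 lost their call without SFM replicate 1 alone, and Hgf without either PE library or SFM replicate 1. With the fibroblast libraries alone 6 Wnt genes were higher and 1 lower, and 7 growth factor genes higher and 6 lower.

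Prostaglandin genes held 2 higher and 1 lower of 20 (median 0.15), beside 2.06% of all tested genes called higher and 1.77% called lower. Beside the transporter Slco2a1, Ptges, a prostaglandin E synthase, was higher, at 10.7 and 12 CPM with PE and 7.74 and 5.42 CPM in SFM (log2 0.79 ± 0.19, adjusted p = 0.0452), a call lost without each library in turn (adjusted p of up to 0.283), and the cyclooxygenase gene Ptgs2 was lower. Of 25 cytokine, chemokine and acute-phase genes 1 was higher (median 0.0582): Ptx3, the pattern-recognition protein pentraxin-3, with 187 and 180 CPM with PE and 112 and 86.2 CPM in SFM (0.89 ± 0.11, adjusted p = 0.00136), kept without each library. Of 24 interferon-stimulated genes 2 were higher (median 0.16), Irf1 and Bst2, by 0.63 each, and of 17 metallothionein and antioxidant genes 2 were higher (median 0.15), the secreted peroxidase gene Gpx3 (0.64 ± 0.11, adjusted p = 0.00823) and Gsta4 (0.80 ± 0.17, adjusted p = 0.0268). The channel list had 1 higher and 2 lower of 23 (median -0.15): Cacna1g, a T-type calcium channel (0.98 ± 0.16, adjusted p = 0.00728), against Trpc6 and Trpc1 (-0.53 ± 0.12, adjusted p = 0.027). With the fibroblast libraries alone the counts higher and lower were 4 and 2 for prostaglandin genes, 4 and 2 for cytokines, 6 and 0 for antioxidant genes and 3 and 2 for channels. Over all genes that fit called 731 higher and 575 lower of 12806 tested.

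Metabolic and housekeeping lists showed few changes, beside 2.06% of all tested genes called higher and 1.77% called lower. None of 21 oxidative phosphorylation, 23 glycolysis, 22 ribosome biogenesis, 24 ATF4-target and 20 unfolded protein response genes passed, with medians of -0.0129, -0.0395, -0.00724, -0.0671 and -0.11 in that order. Of 26 cholesterol genes 1 was lower (median -0.24): Sc5d, a late enzyme of cholesterol synthesis, with 167 and 173 CPM with PE and 271 and 213 CPM in SFM (log2 -0.51 ± 0.11, adjusted p = 0.0312). Without the 2 cardiomyocyte libraries that stand apart 8 cholesterol genes were lower and none higher, beside 1026 lower of 13786 genes tested. Of 25 fatty acid oxidation genes 1 was higher and 2 lower (median -0.0608): the mitochondrial carrier gene Ucp2 (0.35 ± 0.07, adjusted p = 0.0245) against Fabp3, the heart-type fatty acid binding protein (15.5 and 13.4 CPM with PE, 24.1 and 22.6 CPM in SFM; -0.69 ± 0.11, adjusted p = 0.00728), and Acsl4 (-0.40 ± 0.09, adjusted p = 0.0281). Of 17 clock genes 1 was lower, Clock itself, by -0.30 ± 0.06 (adjusted p = 0.0234), with a list median of 0.12.

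**Figure D3:**
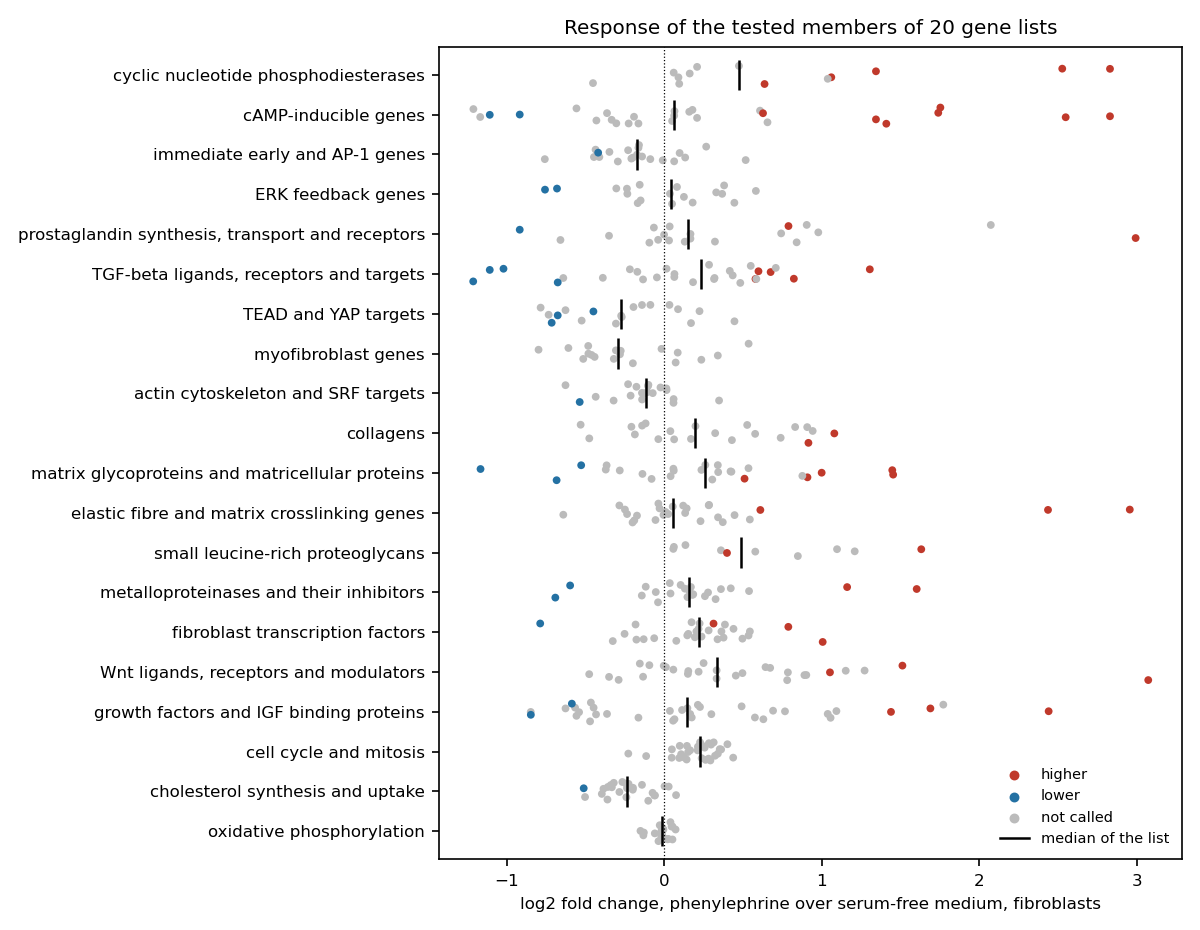
Log2 fold change of PE over SFM (horizontal axis) for the tested members of 20 gene lists (rows), 1 point a gene, red where called higher, blue where called lower and grey where not called, with a bar at each list's median. Phosphodiesterases lie mostly to the right of 0, TEAD, YAP and myofibroblast genes mostly to its left, and oxidative phosphorylation genes close to 0.

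Reads where genes overlap could not be told apart by strand, since the kit does not mark it. Gene spans in RefSeq (GRCr8) were checked for the 190 genes that the naming rule gives, of which 186 matched by symbol. Of the called ones, 8 overlap another protein-coding gene: Cpxm2, Olfml2a, Ptx3, Mfap2, Pde7b, Ecm2, Fabp3 and Pdgfd. The spans include introns, so an overlap does not show that reads were shared, which was not tested. The single values of these 8 carry that limit. Called genes named outside the rule were not checked.

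The cardiomyocytes of the series received the same agonist, and their 3 PE and 3 SFM libraries share no sample with the fibroblast comparison. Both contrasts came from 1 model of all 10 libraries, with a shared estimate of each gene's spread. The 2 sets of calls are therefore not independent. Of the 531 genes called in fibroblasts 62 (11.7%) were also called in cardiomyocytes, which is 12.3% of the 503 called there. Of all tested genes, 3.83% were called in fibroblasts and 3.63% in cardiomyocytes. The direction was the same for 31, with 29 higher and 2 lower in both, and opposite for 31, with 12 higher in fibroblasts but lower in cardiomyocytes and 19 lower in fibroblasts but higher in cardiomyocytes. Genes that rose in both cell types included Inha (log2 2.55 in fibroblasts and 1.84 in cardiomyocytes), Nr4a3 (1.75 and 1.01), Sik1 (1.74 and 0.94), Slco2a1 (2.99 and 1.14), Pde4b (2.83 and 0.83) and Col4a3 (1.08 and 0.40). Opposite calls included Spry4 (-0.76 in fibroblasts and 0.42 in cardiomyocytes), Dusp8 (-0.68 and 0.34), Sc5d (-0.51 and 0.43), Nid2 (-0.68 and 0.74), Ptges (0.79 and -1.06) and Bst2 (0.63 and -0.56).

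The difference between the 2 responses was tested directly as an interaction, and 451 genes (3.25% of those tested) were called. It rests in part on the same fibroblast libraries and was not recomputed under other settings. Pde4b differed by 2.00 ± 0.13 in log2 (adjusted p = 9.51e-05), so its rise in fibroblasts was larger than that in cardiomyocytes. Cdkn1c differed by 3.35 ± 0.26 (adjusted p = 0.00019), with 20.6 CPM on average with PE and 2.83 CPM in SFM in fibroblasts, against 3.22 and 4.52 CPM in cardiomyocytes. Cpxm2 (2.07 ± 0.29, adjusted p = 0.00534), Slco2a1 (1.85 ± 0.25, adjusted p = 0.00482), Aqp1 (1.93 ± 0.20, adjusted p = 0.00224) and Fbln1 (2.26 ± 0.30, adjusted p = 0.00765) likewise rose more in fibroblasts. Mean cardiomyocyte levels with PE and in SFM were 1.93 and 0.979 CPM for Cpxm2 and 40.4 and 35.5 CPM for Fbln1. They were 55.2 and 25.1 CPM for Slco2a1 and 581 and 495 CPM for Aqp1. Fibroblast markers summed to 8750 to 18000 CPM in the cardiomyocyte libraries, and the part of any fibroblasts there was not tested. St6gal1 (-1.20 ± 0.13, adjusted p = 0.00139), Galnt18 (-1.08 ± 0.10, adjusted p = 0.000796) and Sorbs2 (-1.58 ± 0.19, adjusted p = 0.00286) differed the other way, with cardiomyocyte changes of 0.07, 0.01 and 0.39. For Inha (0.70 ± 0.28, adjusted p = 0.212) and Tnc (-0.86 ± 0.23, adjusted p = 0.0795) the difference between cell types did not pass.

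**Figure D4:**
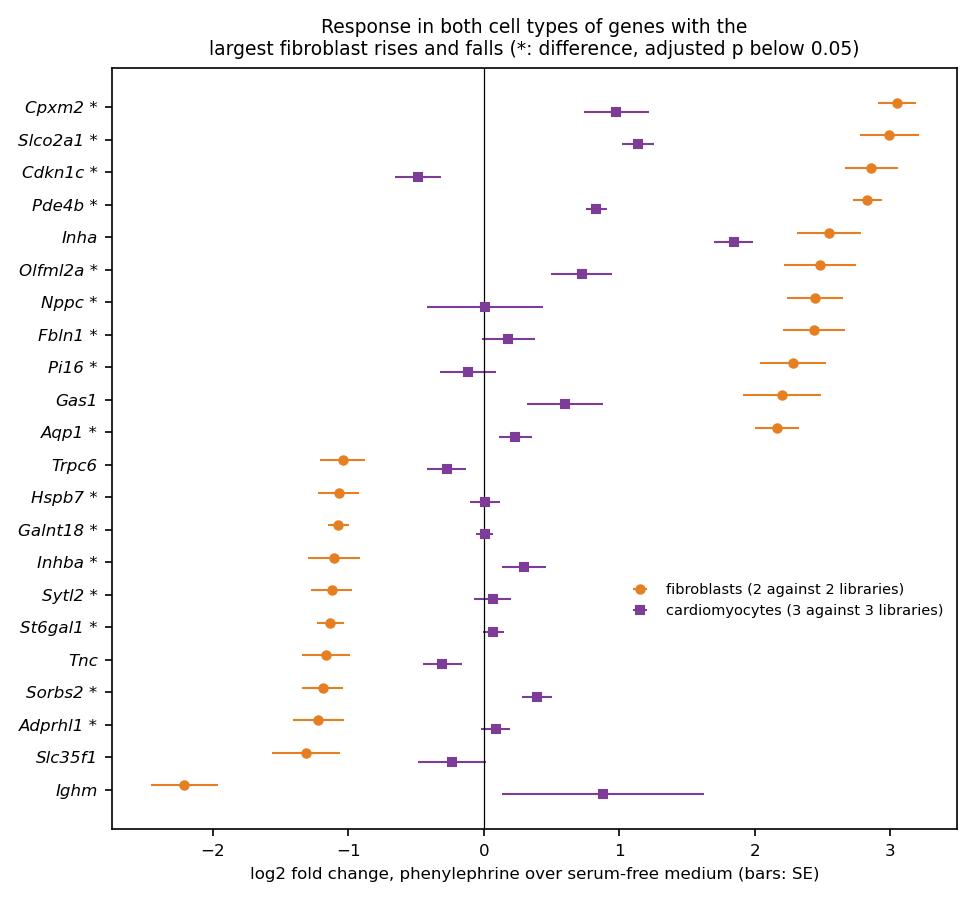
Log2 fold change of PE over SFM (horizontal axis, bars for the SE) for 11 of the 12 largest fibroblast rises and 11 of the 12 largest falls (rows), with fibroblasts as orange circles (2 against 2 libraries), cardiomyocytes as purple squares (3 against 3) and a star where the 2 responses differ at adjusted p below 0.05. Inha, Slco2a1 and Pde4b rise in both cell types. The cardiomyocyte values lie closer to 0 than the fibroblast values for all 22 genes, which were chosen by their large fibroblast values.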

How the data were processed

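RNA of 10 samples was sequenced on 1 lane after TruSeq library preparation from 1000 ng of total RNA, per the labels. Reads were trimmed with cutadapt, aligned to Rnor_6.0 with TopHat2 2.0.10 and counted with HTSeq 0.6.1p1, and groups were compared in DESeq2 1.6.3, per the submitters' processing notes; the annotation release and strand setting are not given in the sources used here. The authors' deposited table holds a whole-number count per gene symbol and library, without normalization. Each of the authors' comparisons has a log2 fold change and an adjusted p-value there, per the file headers. Its 10 further per-library columns were not used.

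Of 28522 symbols, 13869 passed filterByExpr at a minimum count of 10 and a total of 15. Scaling used TMM (trimmed mean of M values) factors. A quasi-likelihood model with robust dispersion and 1 coefficient for each of 4 groups was fitted in edgeR 4.0.16 (R 4.3.3) over the 10 libraries, and tested on simulated data. Two-sided p-values were Benjamini-Hochberg adjusted over all genes of a contrast, and a gene was called below 0.05; ± is the standard error. Library totals ran from 18048944 to 22794744 counts over the series.

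The text names the 12 largest rises and 12 largest falls among called genes (at least 10 CPM in the higher group, no overlap, no provisional names), Pde4b, Cpxm2, Slco2a1, Cdkn1c and Tnc, a panel of receptor, matrix and early genes, and up to 4 members of smallest adjusted p from each of 43 lists (819 of 898 entries tested). A few genes that this rule gives are not reported here. Further list members named beside a count, Otof, and the examples shared with cardiomyocytes were chosen after their values were seen. Members and lists were chosen with earlier results of these data known. Promoter windows came from RefSeq (GRCr8) and matched by symbol for 9880 tested genes; the files give no coordinates.

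The fibroblast calls, fold changes and list counts were recomputed with DESeq2 1.42.0, with limma-voom (limma 3.58.1) and with factors by relative log expression. They were also recomputed unfiltered, filtered at 10 CPM, at 2-fold or more and from fibroblast libraries only. Further fits used the replicate number as a block or left out each fibroblast library in turn. The cardiomyocyte calls, shared calls, interaction, marker sums and motif shares were not recomputed. Scaling by library size alone and leaving out 2 cardiomyocyte libraries were chosen after seeing the data.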

Additional observations from a re-analysis of the deposited data

Results flagged for a closer look

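The response of fibroblasts to phenylephrine differed from that of cardiomyocytes in 58 of the 190 genes the rule names (edgeR interaction test, Benjamini-Hochberg adjusted p below 0.05), beside 3.25% of all tested genes. Most of the named genes were chosen from the fibroblast libraries that the interaction also uses, so this count is a description. Each value is the log2 response of fibroblasts minus that of cardiomyocytes. The fibroblast comparison has 2 libraries against 2. The cardiomyocyte groups each hold a library picked as standing apart from its mates, without a measure of that given here.

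The value was above 0 for 33 genes. One of them, Nppc, averaged 0.223 CPM with PE and 0.226 CPM in SFM in cardiomyocytes, near the level of 3 counts there (0.128 to 0.163 CPM). Among genes of signalling through receptors, cAMP and cell growth, it was above 0 for Adra1b (2.49), Cdkn1c (3.35), Nr4a1 (1.29), Nr4a3 (0.74), Pde3a (0.89), Pde4b (2.00), Pde4d (1.70), Itpr3 (0.61), Igfbp3 (1.63), Hgf (1.40), Nppc (2.43), Rspo1 (1.33), Dact2 (4.07) and Cacna1g (1.08). Among matrix and surface genes, it was above 0 for Adamts15 (1.61), Adamts9 (1.15), Col4a3 (0.68), Cpxm2 (2.07), Dcn (2.69), Fbln1 (2.26), Olfml2a (1.76), Pi16 (2.40), Smoc2 (2.48) and Aqp1 (1.93). Among prostaglandin, defence, antioxidant and metabolic genes, it was above 0 for Slco2a1 (1.85), Ptges (1.85), Ptx3 (0.61), Bst2 (1.19), Ifi27 (0.84), Gpx3 (0.58), Gsta4 (1.18), Nqo1 (1.06) and Pfkm (0.49).

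The value was below 0 for 25 genes. For ligands, feedback and early response genes, the values were Tgfb2 (-0.80), Tgfb3 (-1.40), Inhba (-1.40), Pdgfd (-0.67), Spry4 (-1.17), Dusp8 (-1.02), Zfp36 (-0.62), Ier3 (-0.57), Egr2 (-1.16) and Gadd45g (-0.95). For matrix, adhesion and stretch-responsive genes, the values were Fn1 (-0.68), Adamts12 (-0.67), Vcl (-0.89), Ankrd1 (-0.87), Lats2 (-0.50), Sorbs2 (-1.58), Hspb7 (-1.08) and Adprhl1 (-1.31). For glycosylation, vesicle and lipid genes, the values were St6gal1 (-1.20), Galnt18 (-1.08), Sytl2 (-1.19), Sc5d (-0.94), Nsdhl (-0.66), Hsd17b7 (-0.86) and Acsl4 (-0.51). Of all these genes, Adra1b, Dcn, Egr2, Hsd17b7, Ier3, Ifi27, Nqo1, Nsdhl and Pfkm were not called in the fibroblast comparison itself. The smallest adjusted p-values of the difference were 9.51e-05 for Pde4b, 0.00019 for Cdkn1c, 0.000451 for Adamts9 and 0.000796 for Galnt18.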

How the results depend on the processing

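The main counts of 286 higher and 245 lower genes stayed within 1.5 times with factors by relative log expression, with limma-voom, unfiltered, filtered at 10 CPM and with scaling by library size alone (257 to 370 higher and 184 to 273 lower), and no gene named by the rule that was called, before or after, reversed under any alternative. DESeq2 gave 380 higher and 376 lower. A fold of at least 2 left 121 and 29. The fit of the 4 fibroblast libraries alone gave 731 and 575, and leaving out the 2 cardiomyocyte libraries that stand apart gave 1030 and 1026; the cause was not tested. Leaving out 1 fibroblast library gave 73 to 271 higher and 39 to 245 lower genes, with fewer libraries in the fit and the lone library assumed to vary like the other groups. Scaling by library size alone turned the split to 66.8% higher, against 53.9%, and moved the median log2 fold change of all genes to 0.0321 from -0.00283. The labels number replicates in each group, but the differences between replicates 1 and 2 had a correlation of -0.0413 over genes between PE and SFM, so the numbers are not shown to pair libraries; with the replicate number as a block the counts were 130 and 95, of which 129 and 93 were among the main calls. With 2 libraries a group, 2486 genes passed an unadjusted p of 0.05, and at 0.152 to 0.166 CPM for 3 counts the alpha1 receptor genes Adra1a (0 to 5 counts) and Adra1d (1 to 2 counts) lay near the limit of depth.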

Other observations

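Outside the lists, further genes kept their call without each fibroblast library in turn, and those given here were chosen after their values were seen. Col4a4, which encodes the partner chain of Col4a3 in the alpha3-alpha4-alpha5 collagen IV network, had 119 and 114 CPM with PE and 60.6 and 56.4 CPM in SFM (log2 0.99 ± 0.13; edgeR adjusted p = 0.0026). Ackr3, a scavenging receptor of the chemokine CXCL12, had 119 and 113 CPM with PE and 50.7 and 46.8 CPM in SFM (1.25 ± 0.11, adjusted p = 0.000111). Kif26a, an atypical kinesin, had 91.1 and 88.2 CPM with PE and 27.4 and 30.5 CPM in SFM, and rose in fibroblasts (1.63 ± 0.09, adjusted p = 2.61e-06) as in cardiomyocytes (1.30). Xdh, the purine-degrading xanthine dehydrogenase, had 17.6 and 15.6 CPM with PE and 4.05 and 4.38 CPM in SFM (1.98 ± 0.24, adjusted p = 0.00163). The cytokine receptor genes Il4r (0.76 ± 0.10, adjusted p = 0.00228) and Ifngr1 (0.59 ± 0.06, adjusted p = 0.000534) were also higher. In each of these genes both PE libraries lay above both SFM libraries.

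Among the falls, Itga6, a laminin-binding integrin subunit, had 50.8 and 55.8 CPM with PE and 99 and 92 CPM in SFM (log2 -0.84 ± 0.10, adjusted p = 0.000971). Limch1, an activator of non-muscle myosin, had 42.1 and 42.6 CPM with PE and 93.4 and 79 CPM in SFM (-1.03 ± 0.09, adjusted p = 0.000111). Dmd, which encodes dystrophin, had 97.6 and 104 CPM with PE and 156 and 157 CPM in SFM (-0.64 ± 0.08, adjusted p = 0.00123). St8sia2, a polysialyltransferase, had 14.7 and 16 CPM with PE and 28 and 27.8 CPM in SFM (-0.86 ± 0.11, adjusted p = 0.00155), beside the fall of the sialyltransferase gene St6gal1. Both PE libraries lay below both SFM libraries in each of these genes.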
